A study of Drosophila melanogaster
Drosophila virilis with 26 samples.

Results

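The comparison described here is that of TruSeq libraries, made from 100 ng of total RNA, with Clontech libraries, made from 1 ng, over the genes of Drosophila melanogaster. It takes 8 of the 26 libraries of the series, 4 per protocol, and the 13802 of 28133 gene rows whose names do not carry the D. virilis prefix. The RNA was extracted with TRIzol from pools of whole embryos aged 0 to 4 h, and no genotype or strain is given in the sources used here. Each protocol was given the same mixtures, in which D. virilis supplied 0, 5, 10 or 20% of the total RNA as a second fly species of known amount. There was 1 library per protocol and mixture. Once the D. virilis rows are set aside and each library is scaled to its own D. melanogaster reads, the 4 mixtures are repeated libraries of the same kind of RNA, so the error terms below measure the spread between libraries and not between animals. TruSeq libraries were unstranded and made with the Illumina kit at reduced reaction volume. For the Clontech libraries the TruSeq reagents were used as far as cDNA, and the Low Input kit then turned that cDNA into a library. The amount of input RNA and the kit changed together, so their effects cannot be told apart.

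An egg of Drosophila is laid with a large store of maternal mRNA, which runs the rapid nuclear divisions of the first hours before the zygotic genome is switched on in earnest. The abundant messages of such embryos therefore encode translation factors, cyclins, chaperones and the proteins that pattern the axes and the germ line. In both protocols polyadenylated RNA is fragmented, copied into cDNA, fitted with adapters and amplified by PCR. With little input, few copies of a rare message enter the tube, and every later step acts on those copies. A gene can then gain or lose reads against the level measured from ample RNA, either in the same way in every library or differently in each. Those departures are the subject here.

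The TruSeq libraries held 18971801 to 55055710 reads on D. melanogaster genes and the Clontech libraries 2762902 to 7842785, since a pooling error gave the TruSeq libraries most of the sequencing. Levels are given as counts per 1000000 D. melanogaster reads (CPM). At 1 CPM, a gene had 18.97 to 55.06 reads in a TruSeq library and 2.76 to 7.84 reads in a Clontech library. Among the Clontech libraries the one with 10% D. virilis RNA was the deepest and stood apart from the other 3 in most of what follows, so results are given with it and without it, a choice made after the values were seen. All 14 early embryo markers found in the table were among the genes tested, and edgeR called none of them different between protocols, with or without the 10% Clontech library, although 1 was higher in Clontech at an unadjusted p below 0.05. With all libraries DESeq2 and limma voom called none either. Of these markers, Kr had no read in the 0% Clontech library, against 2.20 to 3.22 CPM with TruSeq. The marker eve had none in the 0 and 20% Clontech libraries, against 1.09 to 1.43 CPM with TruSeq. Genes of other tissues were scarce, with 0 of 20 chorion, vitelline membrane and yolk genes, 0 of 34 digestive protease genes, 1 of 83 male seminal and testis genes, 3 of 15 neuronal genes and 4 of 26 muscle genes passing the filter on low values. That filter kept the 6471 genes at 1 CPM or more in at least 4 of the 8 libraries.

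At 1 ng most messages kept their share of the reads. The log2 fold change of Clontech over TruSeq had a median of 0.03 over the 6471 genes, with the 5th and 95th percentiles at -0.31 and 0.42, and for 95.6% of the genes it lay within 0.5 of 0. With edgeR's quasi-likelihood test, 11 genes (0.170%) were higher in Clontech at a Benjamini-Hochberg adjusted p below 0.05, and 3 of them (0.0464%) by at least 2-fold. All 11 were higher in each of the 4 Clontech libraries than in any TruSeq library. No gene (0%) was lower at that threshold, although 386 genes (5.97%) were lower and 754 (11.7%) higher at an unadjusted p below 0.05. The other tools called more genes at the adjusted threshold. DESeq2 called 254 (3.93%) higher and 129 (1.99%) lower. Limma voom, run with quality weights that count the libraries unequally, called 138 (2.13%) higher and 73 (1.13%) lower. With the mixture as a replicate block in the edgeR fit, 36 were higher and 6 lower. The share of genes whose 4 Clontech libraries all lay above the TruSeq range was 8.08% (523 genes), and for 6.14% (397 genes) all 4 lay below it.

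The 3 genes past the 2-fold mark serve mitochondria and vesicle traffic. CG5010, now named Chchd2 after a coiled-coil-helix protein of mitochondria, was at 122, 120, 125 and 134 CPM in the TruSeq libraries, listed by rising share of D. virilis RNA here and throughout. In the Clontech libraries it was at 309, 299, 222 and 316 CPM. The lowest Clontech value lay well above the highest TruSeq value, and the fitted fold was 2.28, with a log2 fold change of 1.19 ± 0.11 (SE) and an adjusted p of 0.00149 by edgeR. CG13551, which carries synonyms of the mitochondrial ATP synthase inhibitor IF1, was at 156, 164, 166 and 189 CPM with TruSeq. With Clontech it was at 442, 373, 267 and 458 CPM, and the 10% library was again the lowest of the 4. Its log2 fold change was 1.18 ± 0.15 (SE), with an edgeR adjusted p of 0.0117. CG44009, now Vti1b, a SNARE of vesicle fusion, was at 16.3, 13.4, 18.01 and 17.7 CPM with TruSeq and at 37.3, 37.5, 24.6 and 39.4 CPM with Clontech. Its groups did not overlap either, and the log2 fold change was 1.06 ± 0.17 (SE) at an edgeR adjusted p of 0.0387. Without any 1 of the TruSeq libraries, CG5010 remained called and CG13551 and CG44009 did not, and the number of genes higher at the adjusted threshold fell to 1 or 2. Without the 0, 5 or 20% Clontech library it was 5, 2 or 15.

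The other 8 genes rose by less than 2-fold, and most of them serve RNA. Ref1, an adaptor for mRNA export, was at 343, 369, 333 and 344 CPM with TruSeq and at 531, 514, 525 and 625 CPM with Clontech, a 1.58-fold difference (edgeR adjusted p = 0.00847). For x16, a splicing factor of the SR family, the TruSeq libraries lay at 267, 271, 249 and 262 CPM and the Clontech libraries at 418, 382, 349 and 384 CPM, a 1.46-fold difference (edgeR adjusted p = 0.0117). SmD1, a core protein of the spliceosomal snRNPs, went from 90.3, 87.9, 93.1 and 98.8 CPM to 156, 144, 126 and 189 CPM, 1.66-fold higher (edgeR adjusted p = 0.0276). In all 3 the groups stayed clear of each other, and in x16 and SmD1 the 10% Clontech library was the nearest to TruSeq. There were also 2 DEAD-box RNA helicases among the 8. The germ plasm helicase vas averaged 330 ± 16.4 CPM with TruSeq and 447 ± 24.99 CPM with Clontech (SD, n = 4 each), and Rm62 1308 ± 30.9 and 1688 ± 91.5 CPM. Their folds were 1.35 and 1.29, both with an edgeR adjusted p of 0.0276. The remaining 3 were mei-38, a spindle microtubule protein, at 128 ± 3.61 and 215 ± 39.2 CPM, Bacc at 213 ± 8.38 and 344 ± 52.3 CPM, and CG18292, now CDK2AP1, at 95.01 ± 4.58 and 136 ± 4.47 CPM (SD, n = 4 each). CG18292 was the most even of the 11, with Clontech libraries between 132 and 141 CPM.

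**Figure D1:**
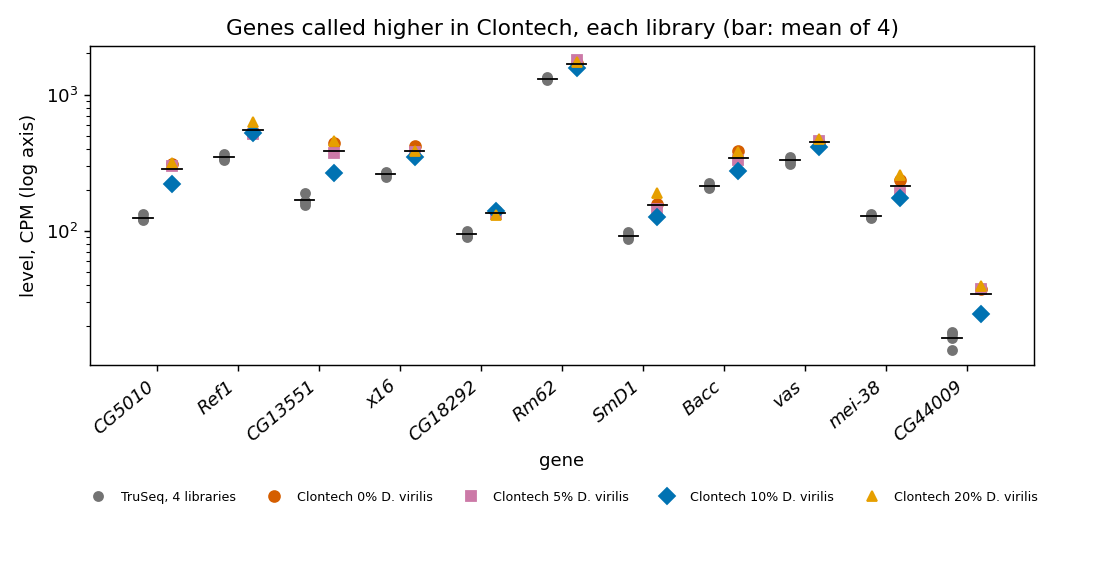
Level in CPM (log axis) of the 11 genes called higher in Clontech, with the 4 TruSeq libraries in grey, each Clontech library by its own symbol and a bar at the mean of 4. The Clontech libraries of every gene lie above its TruSeq libraries, and for CG5010, CG13551 and CG44009 the 10% library (222, 267 and 24.6 CPM) lies below the other 3.

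Of the single libraries left out in turn, the 10% Clontech library moved the number of calls most. Among the 5374 genes tested at 20 CPM or more with TruSeq, the SD across genes of the log2 ratio to the TruSeq level was 0.37, 0.22, 0.13 and 0.39 in the 4 Clontech libraries. The 10% library was the closest to TruSeq, and the TruSeq libraries themselves lay at 0.05 to 0.07. When the 10% library was left out, 481 genes (7.45%) were higher and 295 (4.57%) lower at an adjusted p below 0.05, and all 11 genes named above were among the 481. The count also moved with other libraries, to 141 higher and 71 lower when the 10% library was kept and the 0 and 20% Clontech libraries were left out, and to 0 and 0 without the 0% libraries of both protocols. The 481 genes had median log2 ratios to TruSeq of 0.45, 0.32 and 0.51 in the 0, 5 and 20% libraries that chose them. In the 10% library, which had no part in the choice but is set against the same TruSeq libraries, their median was 0.07. For the 295 genes the medians were -0.42, -0.25 and -0.48 in the 3 libraries and -0.02 in the 10% library. What sets the 10% library apart was not tested. Among the Clontech libraries it had the highest yield reported by the study. It had the most reads of the Clontech libraries, 7842785 against 2762902 to 3470881, and its share of reads without a unique place was 7.51%, against 15.3, 9.31 and 8.47% in the 0, 5 and 20% libraries and 5.96 to 9.27% with TruSeq.

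**Figure D2:**
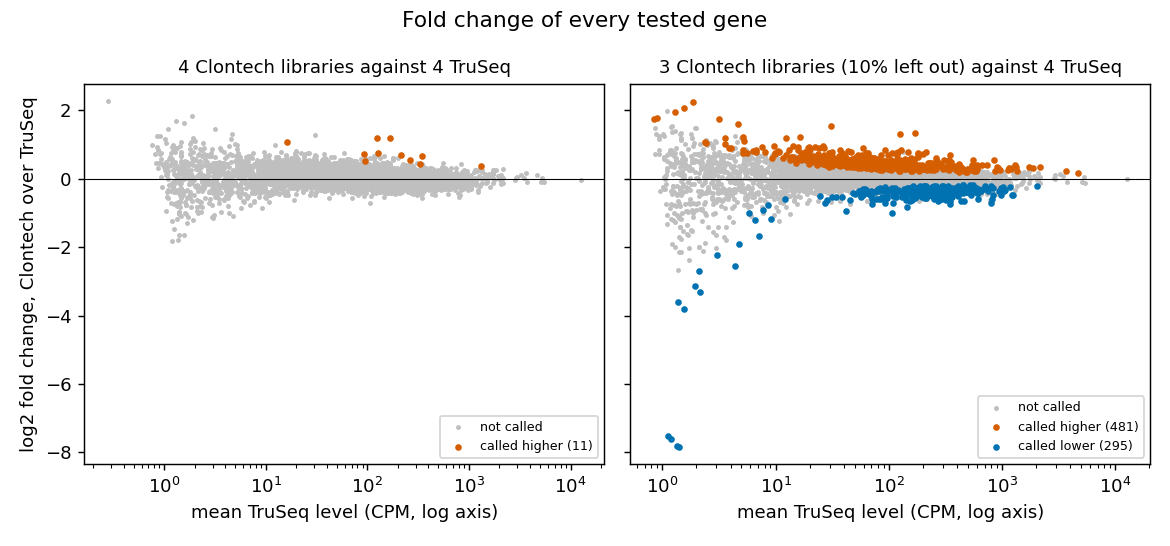
Log2 fold change of Clontech over TruSeq for every tested gene against its mean TruSeq level (CPM, log axis), with 4 Clontech libraries on the left and without the 10% library on the right. Genes past an adjusted p of 0.05 are coloured, 11 higher on the left, and 481 higher and 295 lower on the right, where the 4 points at the bottom are genes without a read in the 3 libraries, so their fitted fold is no bound.

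With the 10% library left out and no minimum fold, the largest increase among called genes at 20 CPM or more with Clontech was that of CG41128. This gene, which carries a synonym of a MICOS subunit of the mitochondrial inner membrane, was at 32.7, 28.7, 28.02 and 32.9 CPM with TruSeq and at 112, 77.5, 37.7 and 78.8 CPM with Clontech. The 4 Clontech libraries were all higher than TruSeq but ranged widely among themselves, and the log2 fold change of 1.29 ± 0.25 (SE) missed the threshold (edgeR adjusted p = 0.0962). Without the 10% library it was 1.54 ± 0.14 (SE), with an edgeR adjusted p of 0.00236. Next after CG13551, CG5010 and CG44009 came CG31360 and CG11752, now NdufV3, a subunit of respiratory complex I. CG11752 was at 24.0 to 28.8 CPM with TruSeq and at 62.3, 32.8, 29.1 and 55.7 CPM with Clontech, all above the TruSeq range and with the 10% library closest to it. Atg12, a ubiquitin-like protein of autophagy, CG17059, Maf1, a repressor of RNA polymerase III, and pen-2, a subunit of gamma-secretase, completed the 10, with log2 fold changes of 0.94, 0.92, 0.91 and 0.91 without the 10% library and edgeR adjusted p of 0.0121, 0.0282, 0.0408 and 0.0169. By edgeR none of the 4 passed with all libraries, whereas DESeq2 called Atg12, Maf1 and pen-2 and limma voom Atg12 and Maf1. In reads gained rather than in fold, the leaders were abundant maternal messages. The histone-binding protein gene Df31, the thioredoxin gene dhd and the cyclin gene CycB had mean levels of 2644, 4142 and 5111 CPM with Clontech against 2167, 3670 and 4724 CPM with TruSeq, and Tctp and Rm62 were the other 2. With all 4 Clontech libraries edgeR called Rm62 alone of these 5, DESeq2 and limma voom called Rm62 and Df31, and for dhd, CycB and Tctp the groups overlapped.

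The largest decrease without the 10% library among called genes at 20 CPM or more with TruSeq was that of Camta. This gene, which encodes a calmodulin-binding transcription activator, was at 102, 110, 104 and 107 CPM with TruSeq and at 59.4, 59.6, 94.5 and 38.2 CPM with Clontech. All 4 Clontech values lay below TruSeq, the 10% library only just. Its log2 fold change was -0.71 ± 0.20 (SE) with all libraries (edgeR adjusted p = 0.162) and -1.02 ± 0.14 (SE) without the 10% library (edgeR adjusted p = 0.00979). The spectraplakin shot, a giant linker of actin and microtubules, was at 136, 157, 140 and 147 CPM with TruSeq and at 68.8, 109, 146 and 63.4 CPM with Clontech. Here the 10% library lay inside the TruSeq range and the other 3 below it, and the log2 fold change without the 10% library was -0.84 ± 0.17 (SE, edgeR adjusted p = 0.0185). The zinc finger gene hang was at 755 to 854 CPM with TruSeq and at 477, 623, 762 and 355 CPM with Clontech. The other members of the 10 were Syx1A, a syntaxin, mv, whose protein belongs to the large BEACH domain family, smi35A, now Dyrk2, a protein kinase, Aats-tyr-m, a mitochondrial tyrosyl-tRNA synthetase, and CG5151, CG13917 and CG10631. Their log2 fold changes without the 10% library ran from -0.94 in CG5151 to -0.67 in CG10631. With all libraries DESeq2 and limma voom called Camta and CG13917 of these 10 lower, and limma voom also hang and mv. The largest losses in CPM among called genes were in rin, Nup358, hang, tlk and Sin3A, which encode an RNA-binding stress granule protein, a nucleoporin, the zinc finger protein already named, a chromatin kinase and a corepressor. Of these, rin lay closest to a call by edgeR with all 4 libraries, at 1163, 1243, 1233 and 1239 CPM with TruSeq and 937, 932, 1041 and 777 CPM with Clontech. Its groups did not overlap, and the log2 fold change was -0.40 ± 0.08 (SE) with an edgeR adjusted p of 0.1005. NUCB1, CG31368, lin, tlk and Nab2, a poly(A) RNA-binding protein, followed it by p among the genes below the TruSeq range, with adjusted p of 0.114 to 0.132 by edgeR. DESeq2 and limma voom called each of these genes and rin lower with all libraries. Limma voom also called Nup358 lower, and neither tool called Sin3A.

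**Figure D3:**
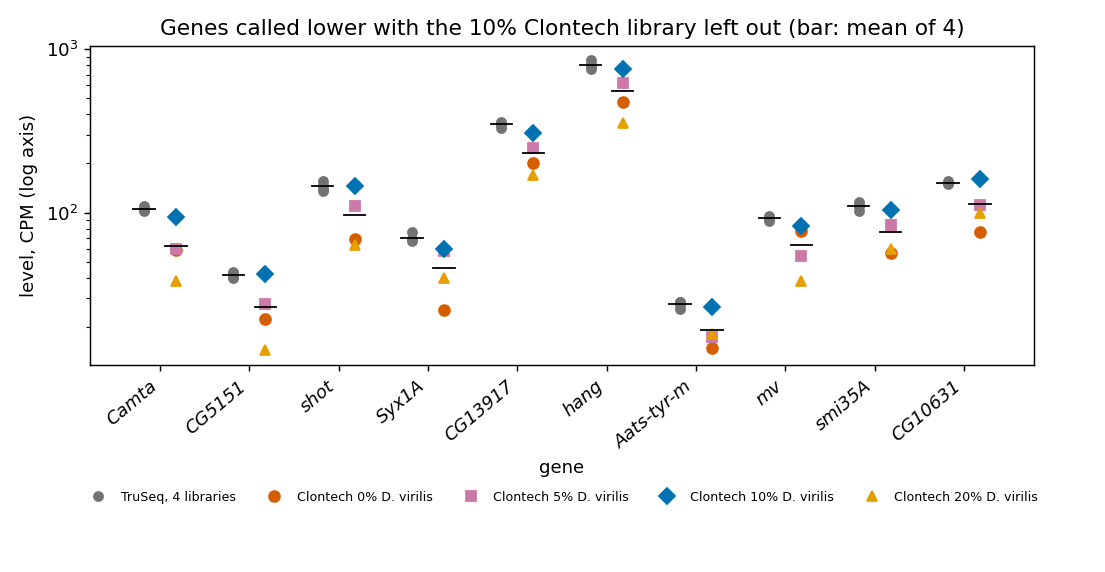
Level in CPM (log axis) of 10 genes at 20 CPM or more with TruSeq, drawn as in the plot of the 11 higher genes. They had the largest decreases with the 10% Clontech library left out, among called genes whose other 3 Clontech libraries all lay below TruSeq. In shot, CG5151 and CG10631 the 10% library (146, 41.9 and 162 CPM) lies within or above the TruSeq values while the other 3 Clontech libraries lie below them.

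The subunits of the nuclear-encoded respiratory chain and ATP synthase had a positive log2 fold change in 22 of 22 tested members, against 3634 of the 6471 genes, and a median of 0.27 against 0.03. By edgeR no member passed with all 4 Clontech libraries, although 10 were higher at an unadjusted p below 0.05, beside 11.7% of all genes. Limma voom called 5 higher and DESeq2 9, beside 2.13% and 3.93% of all genes. In 9 of the 22 every Clontech library lay above every TruSeq library, beside 8.08% of all genes. Without the 10% library 11 of the 22 rose, beside 7.45% of all genes, and 0 fell, beside 4.57%. ATPsyn-b was at 207, 198, 203 and 194 CPM with TruSeq and at 303, 286, 234 and 396 CPM with Clontech, and CoVa, a subunit of cytochrome c oxidase, at 176 to 184 CPM and at 242, 269.7, 219.6 and 328 CPM. At the other end SdhA, the flavoprotein of complex II, had a log2 fold change of 0.01. The group took 0.648 ± 0.008% of the D. melanogaster reads with TruSeq and 0.735 ± 0.088% with Clontech (SD, n = 4 each), and the ranges overlapped (exact permutation test, two-sided, p = 0.0857, 0.450 after adjustment over 21 shares and counts tested this way, where 4 libraries against 4 cannot give a p below 0.0286).

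Histone genes whose messages are polyadenylated were also mostly higher. The 5 replication-independent histone genes had a median log2 fold change of 0.41, and 4 of the 5 rose without the 10% library, beside 7.45% of all genes. With all 4 Clontech libraries edgeR called none, with 4 higher at an unadjusted p below 0.05, beside 11.7% of all genes. Limma voom and DESeq2 called 3 each higher, His3.3B among them, beside 2.13% and 3.93% of all genes. His3.3B, an H3.3 gene, was at 851, 829, 830 and 866 CPM with TruSeq and at 1294, 1154, 876 and 1256 CPM with Clontech, all above TruSeq. The centromeric H3 variant gene cid was at 69.9 to 77.5 CPM with TruSeq and at 111, 93.3, 73.2 and 135 CPM with Clontech, so its 10% library lay inside the TruSeq range. His3.3A and His3.3B encode the same protein, and reads that could not be placed between near-identical copies were not counted. None of the 111 replication-dependent histone genes in the table passed the filter.

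The lists of messages that drive the early divisions and set up the axes had medians near that of all genes, with members on both sides. The 33 maternal axis and germ plasm genes had log2 fold changes from -0.69 to 0.44 with a median of 0.03. In 4 of them all Clontech libraries lay above TruSeq and in 1 below, beside 8.08% and 6.14% of all genes. With all libraries edgeR and limma voom called 1 higher, vas, beside 0.170% and 2.13% of all genes. DESeq2 called 3 higher, beside 3.93%. Without the 10% library edgeR called 3 higher and 0 lower, beside 7.45% and 4.57% of all genes. There gnu, a regulator of the syncytial cycles, joined vas at a log2 fold change of 0.43 ± 0.08 (SE). The axis determinants bcd, nos and osk had log2 fold changes of 0.01, 0.03 and 0.01. Among 21 cell cycle genes 5 had all Clontech libraries above TruSeq and 2 below, beside 8.08% and 6.14% of all genes, and the median was 0.03. Without the 10% library 3 rose and 2 fell, beside 7.45% and 4.57%. In that list the securin gene pim was at 175 to 191 CPM with TruSeq and at 249, 211, 207 and 224 CPM with Clontech, while thr, the separase partner, was at 336 to 349 CPM and at 262, 309, 317 and 279 CPM. The groups did not overlap in either gene, and with all libraries edgeR called neither (adjusted p = 0.139 and 0.176) while DESeq2 called both (adjusted p = 0.00995 and 0.0272). The gap and pair-rule genes of the zygote were few and low, and 13 of 22 were tested. Their median log2 fold change was 0.13 while their summed share of the reads was lower with Clontech, at 0.0797 to 0.117% against 0.118 to 0.124%, so the median and the sum differ in sign. Medians against TruSeq were 0.48, -0.03, -0.06 and -0.33 in the 4 Clontech libraries, so only the 0% library was positive. With all libraries this was the only 1 of the 16 lists whose share ranges did not overlap. The number of such lists varied when single libraries were left out. The exact permutation p of 0.0286 for the gap and pair-rule share became 0.450 after adjustment. DNA replication (34 genes), translation factors (31), heat shock proteins and chaperones (25), and actins and tubulins (9) had medians of 0.02, 0.02, 0.02 and 0.03, and edgeR called none of these genes with all libraries. At an unadjusted p below 0.05 edgeR had 1 higher and 1 lower, 2 and 0, 1 and 3, and 0 and 0 in the 4 lists. Over all genes these shares were 11.7% higher and 5.97% lower. In 3 of the 25 chaperone genes all Clontech libraries lay above TruSeq and in 5 below, beside 8.08% and 6.14% of all genes. Limma voom called eIF-4B, a translation initiation factor gene, and the chaperone gene Hsp60 higher and 1 chaperone gene lower. DESeq2 called the same pair higher and 3 chaperone genes lower. Over all genes limma voom called 2.13% higher and 1.13% lower, and DESeq2 3.93% and 1.99%.

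The list of mostly giant proteins, which holds cytoskeletal linkers, cadherins, dynein heavy chains, lipoprotein receptors and kinases of the PI3K-related family, had a median log2 fold change of -0.18, with 4 of 22 tested members positive. In 2 of the 22 all Clontech libraries lay below TruSeq, beside 6.14% of all genes, and in 0 above, beside 8.08%. With all libraries edgeR called none, with 5 lower at an unadjusted p below 0.05, beside 5.97% of all genes. DESeq2 called 1 lower, beside 1.99% of all genes, and limma voom none, beside 1.13%. Without the 10% library 5 fell, beside 4.57% of all genes, and 0 rose, beside 7.45%, at a median of -0.30. Besides shot the 5 included nonC, the Smg1 kinase gene of nonsense-mediated decay, at 81.5 to 91.6 CPM with TruSeq and at 61.9, 60.8, 83.5 and 47.1 CPM with Clontech. Medians against TruSeq were -0.28, -0.11, 0.05 and -0.51 in the 4 Clontech libraries, so the 20% library was the lowest and the 10% library did not share the direction.

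Further gene families were compiled after the calls had been seen, to describe the classes the called genes belong to, and their counts support nothing beyond that description. In the fit without the 10% library, to which the following counts of risen and fallen genes refer, 7.45% of all genes were higher and 4.57% lower. Of 7 SR splicing factor genes 6 had a positive log2 fold change, at a median of 0.36, and 4 rose without the 10% library, namely x16, Rsf1, SC35 and SF2. SF2 was at 298 to 325 CPM with TruSeq and at 542, 402, 356 and 390 CPM with Clontech, with no overlap between the protocols. The 12 Sm and LSm genes, which encode the rings around snRNAs, had a median of 0.34, and 6 rose without the 10% library. Of 17 DEAD-box helicase genes 13 had a positive log2 fold change, at a median of 0.09. Without the 10% library 2 of these helicase genes rose, vas and Rm62, and 0 fell. The 7 tested genes of mitochondrial protein import had a median of 0.19, from 0.01 in Tom40, the channel of the outer membrane, to 0.72 in Tom7, a small subunit of the same complex. Among 6 RNA polymerase II subunit genes the median was 0.22 and the highest was Rpb12, at 23.1 to 25.8 CPM with TruSeq and at 53.6, 36.3, 27.7 and 47.4 CPM with Clontech. Within the proteasome the 13 core particle genes had a median of 0.12 and the 18 genes of the regulatory cap 0.02. In the replication machinery the 4 GINS genes lay at 0.17 to 0.31, and the 6 Mcm helicase genes at -0.06 to 0.05. Neither difference within a complex was tested.

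Chromatin regulators had a lower median. Of 48 genes compiled, all of them tested, 36 had a negative log2 fold change and the median was -0.14. Without the 10% library 9 fell and 1 rose, beside 4.57% and 7.45% of all genes. The 9 were Bap170, E(z), Ncoa6, Sin3A, egg, rno, tou, trx and upSET, and the 1 that rose encodes heterochromatin protein 1. The gene tou was at 338, 361, 338 and 344 CPM with TruSeq and at 174, 279, 345 and 201 CPM with Clontech, and trx, a histone methyltransferase of the trithorax group, at 154 to 167 CPM and at 109, 124, 158 and 77.3 CPM. In both the 10% Clontech library lay within the TruSeq range. Nucleoporin genes went both ways, with 2 higher and 4 lower of 22 without the 10% library, the first of these counts near the background of 7.45%. Nup44A rose at a log2 fold change of 0.44 ± 0.08 (SE), and Nup358 fell at -0.47 ± 0.08 (SE).

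**Figure D4:**
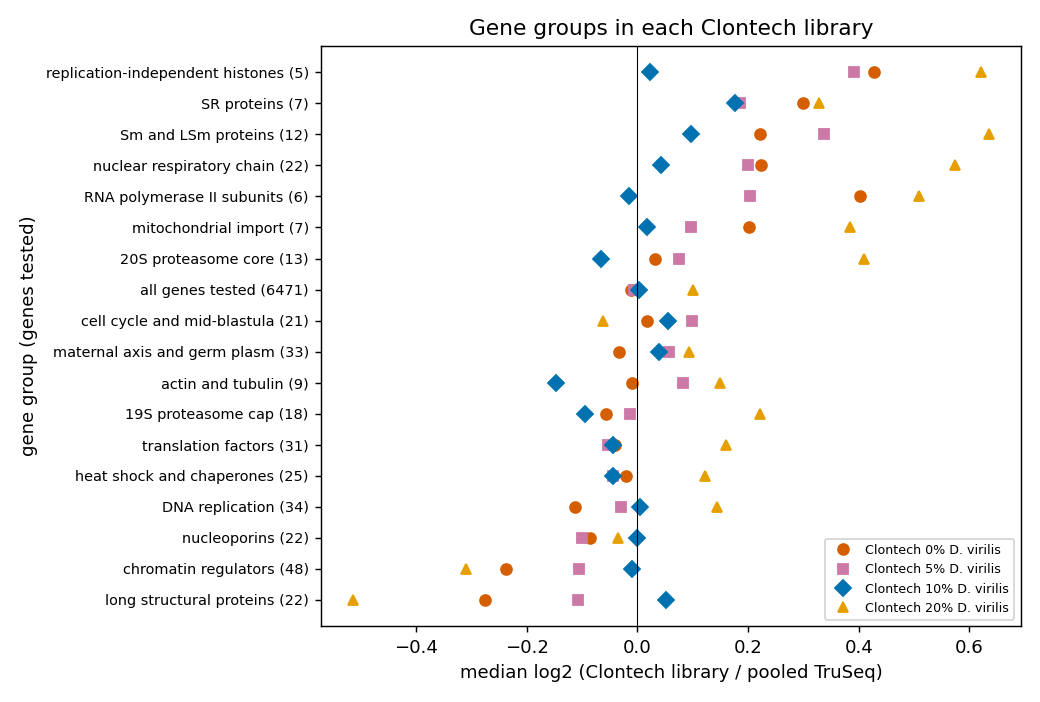
Median log2 ratio of each Clontech library to the pooled TruSeq level for gene groups, with the number of genes tested in parentheses and all 6471 genes for comparison. SR proteins, histones and the respiratory chain lie to the right and giant proteins and chromatin regulators to the left in the 0, 5 and 20% libraries, while the 10% library stays between -0.15 and 0.18 in every group. The SR protein, Sm and LSm, RNA polymerase II, mitochondrial import, proteasome, nucleoporin and chromatin groups were compiled after the calls had been seen.

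Fold change also varied with the level of the gene. To keep Clontech levels out of the choice of genes, this was done over the 6411 genes at 1 CPM or more in every TruSeq library. In 5 bins of equal size by TruSeq level the median log2 fold change went from 0.10 in the lowest bin, up to 26.6 CPM, through 0.10, 0.04 and -0.01 to -0.04 in the highest, above 215 CPM. Genes with all Clontech libraries below TruSeq numbered 43, 24, 58, 94 and 178 from the lowest bin to the highest, and those above numbered 96, 117, 129, 89 and 91. Of the calls made without the 10% library, 84 were higher and 20 lower in the lowest bin and 86 higher and 136 lower in the highest. Transcript length and GC content were not used here.

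Departures beyond 2-fold were mostly seen in 1 library at a time. Of the 5374 genes at 20 CPM or more, 147 differed from TruSeq by over 2-fold in at least 1 Clontech library, 140 of them in 1 library only and none in all 4. The 3 genes off in 3 libraries were CG5010, CG13551 and CG41128. By library there were 20 genes over 2-fold higher and 49 lower at 0%, 3 and 3 at 5%, 0 and 0 at 10%, and 25 and 57 at 20%, and no TruSeq library held such a gene. The extreme case was CG4854 in the 0% library, with 3 reads, or 1.09 CPM, where TruSeq gave 29.9 to 32.0 CPM and the other Clontech libraries 25.4, 28.7 and 29.9 CPM. Likewise CG31441 and CG1868 had 5 and 6 reads in that library and were at 18.6 CPM or more in the other 7. In the 20% library the nuclear export factor gene Nxf3 was at 12.6 CPM against 45.2 to 60.5 CPM in the other Clontech libraries and 55.6 to 59.2 CPM with TruSeq. The phospholipase C gamma gene sl, at 119 to 150 CPM in the other 7 libraries, was at 44.3 CPM there. HSPC300, a small subunit of the SCAR complex, was at 55.7 CPM in the 20% library, 34.6 CPM in the 5% library and 13.8 CPM in the 0% library, against 19.7 to 21.8 CPM with TruSeq.

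In the 0, 5 and 10% libraries departures grew as genes became rarer, and in every Clontech library they were above counting error in each of 5 classes of level. At 1 to 5 CPM the SD across 440 genes of the log2 ratio to TruSeq was 1.47, 0.95, 0.42 and 0.99 in the Clontech libraries, where counting error at their depth gives 0.61, 0.54, 0.36 and 0.56. Above 500 CPM it was 0.25, 0.15, 0.11 and 0.38 over 316 genes, against counting errors of 0.02 to 0.03. The 20% library stood at 0.38, 0.36 and 0.38 in the 3 classes from 20 CPM up. It was the most distant for abundant genes and the 0% library for rare ones. TruSeq libraries had an SD of 0.03 to 0.06 above 500 CPM.

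**Figure D5:**
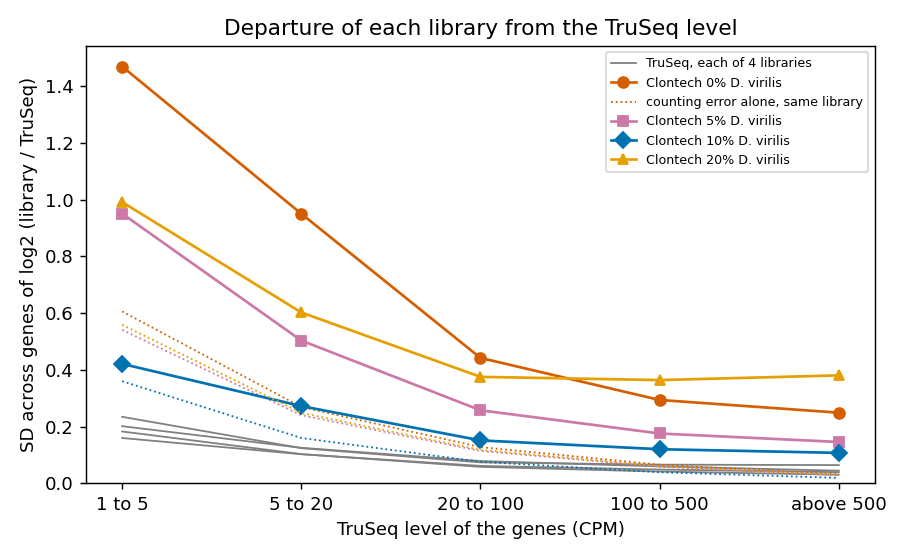
SD across genes of the log2 ratio of each library to the TruSeq level (the other 3 libraries for a TruSeq library, all 4 pooled for a Clontech library), in 5 classes of TruSeq level, with the SD that counting error alone gives as dotted lines in the colour of each Clontech library. The 10% library runs closest to TruSeq and to its dotted line, and the 20% library stays at 0.38 above 500 CPM.

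Rare messages were lost from some Clontech libraries altogether. Of 6411 genes at 1 CPM or more in every TruSeq library, 126, 33, 0 and 34 had no read in the 4 Clontech libraries, where counting error at the TruSeq level would leave 2.71, 0.996, 0.00345 and 1.36 such genes. Reads were amplified by PCR and carry no molecular identifiers, so these expectations cover counting error only. Of the 160 genes concerned 131 were at 0 in 1 library, 98 of them in the 0% library, 25 in 2 and 4 in 3. Of the genes without a read in the 0, 5 and 20% libraries, 28 of 126, 17 of 33 and 17 of 34 also had none in another Clontech library. CG17141 was the most abundant of them, at 10.0 to 11.4 CPM with TruSeq and at 0, 12.1, 7.01 and 11.7 CPM with Clontech. The gene of the Torso pathway ligand trk, which patterns the embryo's termini, was at 6.85 to 8.11 CPM with TruSeq and at 0, 6.63, 5.61 and 5.541 CPM with Clontech. Both were present in the other 3 Clontech libraries. The patterning genes zen and tld were also without a read in the 0% library and at 2.30 to 5.23 CPM in the other 3. The 4 genes missing from all but the 10% library were zfh2, caps, Con and jbug, each at 1.01 to 1.71 CPM with TruSeq, a level that corresponds to a handful of reads in these libraries. No gene was at 1 CPM or more in every library of 1 protocol and without a read in all of the other. After sampling to equal alignments, 6971 to 7045 genes had a read with TruSeq, and 6495, 6808, 7009 and 6844 with Clontech. The 10% library lay inside the TruSeq range and the other 3 below it (exact permutation test, two-sided, p = 0.0857, 0.450 adjusted).

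Against the same 4 TruSeq libraries, and so not independently of the comparison above, the other 1 ng protocols gave far more calls under the same rule. TotalScript gave 938 genes higher and 1058 lower by at least 2-fold, and SMARTseq2 497 and 448, beside 3 and 0 for Clontech. The differences between protocols in these counts were not tested. For CG5010 the mean was 192 ± 17.2 CPM with TotalScript and 216 ± 58.3 CPM with SMARTseq2 (SD, n = 4 each), both above the TruSeq range of 120 to 134 CPM and below the Clontech mean of 287 ± 43.5 CPM. CG13551 averaged 226 and 282 CPM with TotalScript and SMARTseq2, against 169 CPM with TruSeq, and CG44009 30.9 and 50.6 CPM, against 16.4 CPM. Bacc, CG18292 and SmD1 also had means above TruSeq with both protocols. The ranges of CG13551, CG44009, Bacc and SmD1 overlapped those of TruSeq in TotalScript, SMARTseq2 or both. The means of x16, Ref1, Rm62, mei-38 and vas lay below TruSeq with TotalScript, SMARTseq2 or both. With TotalScript and SMARTseq2, x16 averaged 409 and 101 CPM, against 262 CPM with TruSeq. Ref1 averaged 291 and 727 CPM, against 347 CPM. Rm62 averaged 824 and 1246 CPM, both below its TruSeq mean of 1308 CPM.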

How the data were processed

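Reads of 50 bp were mapped by the authors with STAR to the FlyBase genomes of both flies and counted per gene with htseq-count without regard to strand, after base calling with CASAVA 1.8. The deposited values are unnormalized counts, whose columns are labelled FPKM, and a second table holds counts that the authors sampled to equal alignments. Unstranded counts cannot separate genes that overlap on opposite strands. Full-depth counts of D. melanogaster rows were fitted with edgeR 4.0.16 (glmQLFit, glmQLFTest, R 4.3.3), with the D. melanogaster total as library size and genes at 1 CPM or more in 4 of 8 libraries. Log2 ratios of single libraries used a pseudocount of 0.5 CPM. A called gene had an adjusted p below 0.05, with or without a fold of 2. Named genes were, in each direction, the 10 largest fold changes among called genes without overlap between protocols and with a mean of 20 CPM in the higher protocol, the 5 largest differences in CPM, and the leading called members of each list. Since this rule named 3 genes with all libraries, it was also applied without the 10% Clontech library and without the fold, and those genes, the genes lowest in p and the library-specific examples were chosen after their values were seen. Members and lists were chosen with earlier results of these data known. Current symbols came from RefSeq (57 of 59 named genes matched). Alternatives used DESeq2 1.42.0 and limma 3.58.1, whose voom fit weighted each library by its estimated quality. The fits were tested on simulated data. Ribosomal protein and mitochondrially encoded genes were not analysed here.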

Additional observations from a re-analysis of the deposited data

Results flagged for a closer look

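In 40 sets of 4 libraries, the highest or lowest library was compared with the rest by Dixon's criterion, which chance passes about 1 time in 20. The 10% Clontech library was far from its group in CG44009, at 24.6 CPM against 37.3 to 39.4 CPM, and in depth, with 7842785 D. melanogaster reads. The 20% Clontech library was far from its group in Ref1, at 625 CPM against 514 to 531 CPM, and in the share of reads outside annotated genes, 12.6% against 8.54 to 8.85%. The TruSeq library with 5% D. virilis RNA had 0.557% of its reads on the list of mostly giant proteins, where the other 3 had 0.528 to 0.531%.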

How the results depend on the processing

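Among the named genes directions mostly held, and counts of calls did not. These genes were chosen from the same data and most alternatives refit the same libraries, so a kept direction was largely set by the choice. Over 59 named genes and their alternatives, 1174 values in all, 974 kept their direction and side of the threshold, 78 lost a call, 121 gained one, and 1 reversed (Orc6, at -0.026 when the 0 and 20% Clontech libraries were left out together, an alternative chosen after seeing the data). The 3 genes higher by 2-fold became 11 without a minimum fold or with DESeq2, 9 with limma voom, 5 without the 0 and 20% Clontech libraries, 1 without the 20% libraries of both protocols, and 0 without the 0% libraries of both or with glmTreat. Leaving out each library in turn gave 1 to 17. The 0 genes lower by 2-fold became 13 with limma voom and 0 to 16 with each library left out. At adjusted p alone, the 11 higher and 0 lower genes became 254 and 129 with DESeq2, 138 and 73 with limma voom, 26 and 1 with no filter, 141 and 71 without the 0 and 20% Clontech libraries, 2 and 0 without the 20% libraries and 0 and 0 without the 0% libraries, where 510 were higher and 174 lower at an unadjusted p below 0.05 by edgeR. Leaving out each library gave 1 to 481 higher and 0 to 295 lower. TMM, size factors and removing the 10 most counted genes from the totals changed these counts by at most 1. Genes in every TruSeq library and absent from every Clontech library numbered 0 to 4, and lists whose shares did not overlap 1 to 5, when each library was left out. The median SD of a gene between TruSeq libraries went from 0.042 to 0.093 on the log2 scale with sampled counts.

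With the mixture as a replicate block, 36 genes were higher and 6 lower at adjusted p alone, and 4 and 0 by 2-fold. The deviations of libraries with the same mixture correlated at 0.10, 0.27, -0.16 and 0.33, and those of libraries with unlike mixtures at -0.54 to 0.42. The matched values lay inside the range of the unmatched ones, and pairing by mixture was not shown. Within mixtures, differences in the shares of reads equal the main values.

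Depth limits rare genes, since 1 read is worth 0.128 to 0.362 CPM in a Clontech library. Bins by exonic length and GC content were not run, as neither was used here. The cause of the changes between settings was not tested.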
